A study of Mus musculus with 12 samples.

Results

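The AP-1 transcription factor genes were followed through a knockdown of MOF, a histone acetyltransferase, in mouse macrophages. They were taken by gene name from both deposited tables: Jun, Junb and Jund of the JUN subfamily, Fos, Fosb, Fosl1 and Fosl2 of the FOS subfamily, and Atf3, Maff and Batf3. All 10 were found among 14264 genes, each under 1 gene ID. Each had a mean normalized count above 10 and an adjusted p in both tables. RNA was read by stranded mRNA sequencing of bone marrow-derived macrophages, which are grown from mouse marrow and answer the bacterial product lipopolysaccharide (LPS). The groups, 4 in all with 3 libraries each, are shMOF cells (a hairpin against MOF) given LPS at 100 ng/ml for 3 h, shCTRL cells (a control hairpin, labelled WT) given the same LPS, unstimulated shMOF cells and unstimulated shCTRL cells. A single hairpin against MOF is named and no rescue, so other effects of that hairpin and loss of MOF cannot be told apart, and the labels used here give no strain or age. Nothing in the labels ties the libraries to separate animals or cultures. The p-values therefore measure only the spread between these libraries, which may be technical. The tables hold comparisons and no values per library, so depth per library is unknown and no value per sample can be shown.

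AP-1 is a family of dimeric factors that bind DNA through a basic region and pair through a leucine zipper (bZIP). JUN proteins can pair with each other or with FOS proteins, whereas FOS proteins need a partner such as JUN. Many of these genes are immediate-early genes, switched on within minutes by MAP kinase signalling, and in macrophages LPS induces several of them through the receptor TLR4. ATF3 is known in mouse macrophages as an LPS-induced repressor of cytokine genes. Small MAF proteins such as MAFF bind DNA but lack an activation domain. BATF3 pairs with JUN proteins and is required in mice for a class of dendritic cells.

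The sequences before the transcription starts of Fos, Jun, Junb and Maff are shown because Fos and Jun moved opposite to Junb and Maff at LPS 3 h. Each is the 250 bases before a RefSeq start (GRCm38.p6), 5′ to 3′ on the gene's strand, and none of these bases lies in a GENCODE M21 exon of the same gene. Capitals mark matches on either strand to TGACG, TGACATCA, TGACGTCA or TATAAA, or to the NF-kB consensus.
Fos, chr12:85473640-85473889, plus strand: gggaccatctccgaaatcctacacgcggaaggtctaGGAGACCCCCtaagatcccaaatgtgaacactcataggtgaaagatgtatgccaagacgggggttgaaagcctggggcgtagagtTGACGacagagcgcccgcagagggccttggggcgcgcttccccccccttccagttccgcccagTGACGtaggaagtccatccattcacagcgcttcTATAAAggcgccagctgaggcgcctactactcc
Jun, chr4:95052223-95052472, minus strand: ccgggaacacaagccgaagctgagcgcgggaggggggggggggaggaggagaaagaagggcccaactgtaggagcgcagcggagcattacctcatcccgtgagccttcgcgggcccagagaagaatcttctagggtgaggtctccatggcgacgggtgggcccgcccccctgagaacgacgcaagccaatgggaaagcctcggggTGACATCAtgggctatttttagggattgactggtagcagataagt
Junb, chr8:84978749-84978998, minus strand: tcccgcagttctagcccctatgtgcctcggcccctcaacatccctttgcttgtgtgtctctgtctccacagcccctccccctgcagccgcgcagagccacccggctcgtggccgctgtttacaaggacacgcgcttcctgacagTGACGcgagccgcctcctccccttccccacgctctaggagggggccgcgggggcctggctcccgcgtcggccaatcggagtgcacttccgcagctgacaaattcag
Maff, chr15:79347270-79347519, plus strand: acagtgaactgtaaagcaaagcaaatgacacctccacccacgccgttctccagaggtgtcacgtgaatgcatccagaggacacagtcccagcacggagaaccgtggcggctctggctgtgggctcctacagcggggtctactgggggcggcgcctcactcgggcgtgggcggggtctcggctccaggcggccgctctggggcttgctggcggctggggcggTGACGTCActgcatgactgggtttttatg
The RefSeq table held such windows for 9 members, with 3 for Maff, and the Maff window shown lies before an inner start. The Jund window, chr8:70697489-70697738, ends well before the GENCODE M21 start of Jund at 70698949. Bases next to that start were therefore not searched for Jund. The Fos window held TGACG at 129 and at 66 bases before the start, and TATAAA at 33 bases. Jun, and a further Maff window, held TGACATCA 45 bases before the start, a variant found in 2.93% of 32851 upstream windows. The Maff window just before the GENCODE M21 start of the gene, chr15:79346371-79346620, held no match to any motif searched. The Maff window shown held the full cyclic AMP response element TGACGTCA, 29 bases before the start, which 1.55% of windows held. TGACG, the core of that element and contained in it, was found in 5 of the 9 genes against 17.8% of windows, and TATAAA in 1 gene against 12.4%. The AP-1 site TGACTCA was in 0 member windows against 4.46% of all, and the CArG box bound by SRF in 0 against 1.47%. At shares this low, 0 matches in 9 genes does not set the members apart. Sites more than 250 bases before a start were not searched. A match to the NF-kB consensus was in 4 genes against 7.25% of windows. Shares are over single windows, while Maff could match in any of 3. These matches are letters in these windows and do not show binding. By GENCODE M21 all 250 bases of the Fosl2 window lie in exons of the same gene, as do 163 of the Batf3 window, 95 of a further Maff window, 7 of Atf3 and 6 of Fosb, so not every counted match is untranscribed sequence. For Fosb the TGACG match alone is printed with its flanks, at chr7:19310091-19310115 on the minus strand.
Fosb: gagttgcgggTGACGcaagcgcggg

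The ends of some of these mRNAs carry AU-rich elements, which are known to mark immediate-early mRNAs for fast decay. The nonamer TTATTTATT, which contains the pentamer ATTTA, was searched after the stop codon of 1 GENCODE M21 transcript per gene. It occurred in 3 of the 10 members, and in 7.12% of 11957 measured genes.
Fos, chromosome 12: tgttttcaatTTATTTATTaagatggatt
Maff, chromosome 15: ttccacactcTTATTTATTgcacgaatct
Fosl2, chromosome 5: atttattttaTTATTTATTttaaatgttt
Capitals mark the nonamer. Maff had 2 copies in a 3′ untranslated region (UTR) of 1221 bases, where 6.58% of genes of like length (within 25%) had any. Fos had 1 copy in 815 bases against 5.56% of genes of like length, and Fosl2 had 1 in 4653 bases against 19.7%. These 3 members did not share a direction at LPS 3 h: Maff rose, Fos fell and Fosl2 was not called.

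The knockdown was present in both states. For Kat8, which encodes MOF, the authors' deposited table gives log2 fold changes of -2.31 ± 0.13 at LPS 3 h and -2.25 ± 0.10 unstimulated (± the authors' standard error, SE, here and throughout), or 20.1% and 21.0% of control. Calls were broad, with 48.0% of 13987 genes past an adjusted p of 0.05 at LPS 3 h and 39.1% of 14264 unstimulated. Marker lists moved as well. Of 8 macrophage markers 5 rose and 1 fell at LPS 3 h, and 7 rose unstimulated. Of 8 markers of dividing cells 7 fell at LPS 3 h while Mki67 rose, and all 8 fell unstimulated, with medians of -1.47 and -2.24. Of 6 fibroblast markers 4 rose at LPS 3 h and 3 unstimulated, and of 4 progenitor markers 2 and 3 fell. Both dendritic cell markers found rose at LPS 3 h and 0 were called unstimulated. Cd79b, a B cell marker, rose in both states, Kit, a mast cell marker, fell unstimulated, 0 of 2 neutrophil markers were called, and 0 of 5 T cell markers were matched by name. Summed marker levels per group cannot be computed from these tables, and the part of these shifts in the AP-1 values was not tested. In bulk RNA, fewer cells of a type and less RNA per cell cannot be told apart.

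At LPS 3 h most AP-1 genes were called, in both directions. Fosb, Maff, Fosl1, Jund, Junb and Atf3 rose, Fos and Jun fell, and Fosl2 and Batf3 were not called. These are 6 rises among 10 members, against 28.1% of all genes tested that were called higher, and 2 falls, a share equal to the 20.0% called lower. The share called was larger among genes with higher counts. Of 10809 genes with a mean of at least 50, with p adjusted anew over these genes alone, 59.2% were called. Of these calls 3732 were higher and 2670 lower. All members but Batf3 are among the 10809 genes. The members' median log2 fold change was 0.45, against 0.03 over all genes tested. Fold changes are shMOF over shCTRL, and adjusted p-values are those of the authors' DESeq2 comparison. A level in percent of control is the fold change with its 95% interval from the SE.

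**Figure D1:**
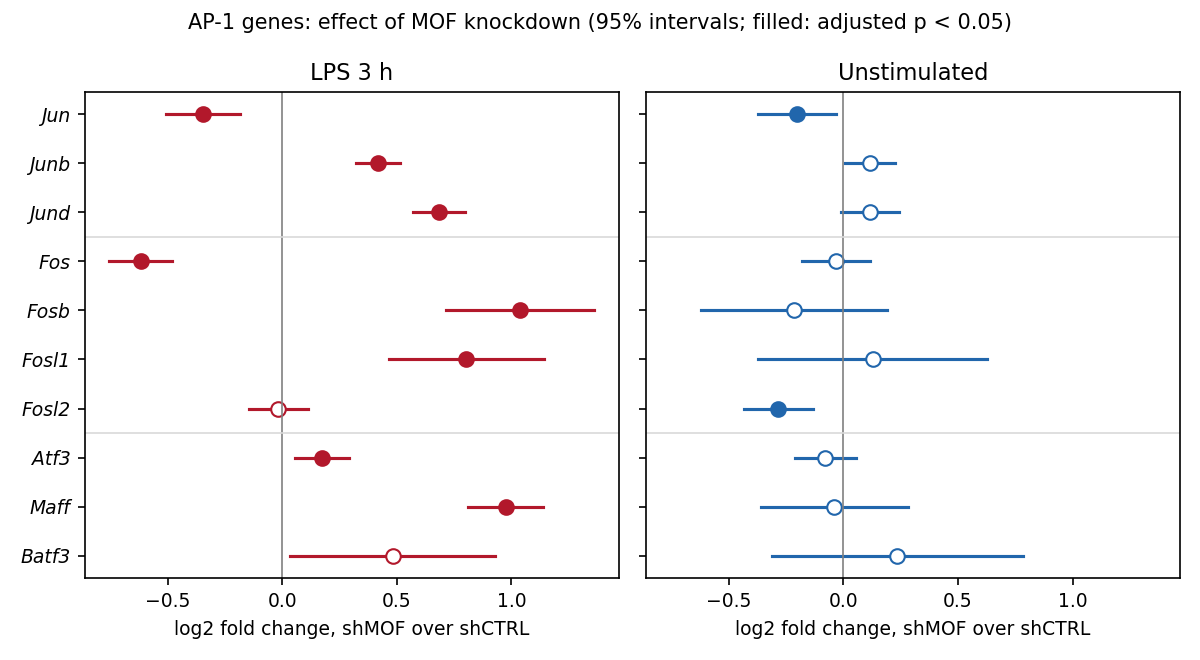
Log2 fold change of each AP-1 gene, shMOF over shCTRL, at LPS 3 h (left) and unstimulated (right). Points are the authors' estimates, lines their 95% intervals from the SE, and filled points passed an adjusted p of 0.05; 8 of 10 points are filled at LPS 3 h and 2 of 10 unstimulated.

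Within the JUN subfamily, Jun went against its relatives at LPS 3 h. Jun (ENSMUSG00000052684.4; chromosome 4 from 95049034 to 95052222, minus strand, GRCm38 as for all positions of genes) encodes c-Jun, the factor that JNK kinases phosphorylate. It fell to 78.7% of control (70.4 to 88.0%), which the authors' deposited table gives as -0.35 ± 0.08 on the log2 scale (adjusted p = 9.86e-05). Junb (ENSMUSG00000052837.5; chromosome 8 from 84974484 to 84978718, minus strand) encodes JunB, which can oppose c-Jun at some genes. It rose to 134% (125 to 143%), or 0.42 ± 0.05 log2 by the authors' deposited table (adjusted p = 1.07e-16). Jund (ENSMUSG00000071076.5; chromosome 8 from 70698949 to 70700616, plus strand) is broadly expressed in many tissues. It rose to 161% (148 to 174%), or 0.68 ± 0.06 log2 by the authors' deposited table (adjusted p = 3.51e-30). The 95% interval of Jun lay below 0 and those of Junb and Jund above it.

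The FOS subfamily also held both directions, with Fos and Fosb moving in opposite directions. Fos (ENSMUSG00000021250.13; chromosome 12 from 85473890 to 85477273, plus strand), the classic immediate-early gene for c-Fos, fell to 65.2% of control (59.3 to 71.7%). Its log2 value of -0.62 ± 0.07 by the authors' deposited table (adjusted p = 2.30e-17) was the lowest of the 10 members. Fosb (ENSMUSG00000003545.3; chromosome 7 from 19302696 to 19310051, minus strand), which encodes a close relative of c-Fos, rose to 205% (164 to 257%). At 1.04 ± 0.17 log2 by the authors' deposited table (adjusted p = 2.46e-09) it stood highest among the members, and 232 of 12994 genes had a larger value. Fosl1 (ENSMUSG00000024912.5; chromosome 19 from 5447547 to 5455946, plus strand) encodes a FOS protein without the strong activation domain of c-Fos. It rose to 174% (138 to 220%), or 0.80 ± 0.17 log2 by the authors' deposited table (adjusted p = 1.49e-05). Fosl2 (ENSMUSG00000029135.10; chromosome 5 from 32135801 to 32157842, plus strand), the other gene of that type, was not called, and the authors' deposited table puts it at -0.02 ± 0.07 log2 (adjusted p = 0.863). Its interval ran from 90.3 to 108% of control.

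The ATF, MAF and BATF members all had values above 0 at LPS 3 h, with the highest for Maff. Maff (ENSMUSG00000042622.13; chromosome 15 from 79346621 to 79359076, plus strand) rose to 197% of control (175 to 220%), or 0.97 ± 0.08 log2 by the authors' deposited table (adjusted p = 4.82e-30). Atf3 (ENSMUSG00000026628.13; chromosome 1 from 191170296 to 191218039, minus strand) rose to 113% (104 to 122%). Its 0.17 ± 0.06 log2 by the authors' deposited table (adjusted p = 0.0113) did not pass a threshold of 0.01. Batf3 (ENSMUSG00000026630.9; chromosome 1 from 191097847 to 191108945, plus strand) lies 61350 bases from Atf3. It was not called, and the authors' deposited table puts it at 0.48 ± 0.23 log2 (adjusted p = 0.0690), with an unadjusted interval of 102 to 191% of control.

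The calls at LPS 3 h depend on the null that is used. With an empirical null, which takes the wide spread of statistics over all genes as its width, Jund (adjusted p = 0.00684) and Maff (0.00707) were called. Fos (adjusted p = 0.0610), Junb (0.0912), Fosb (0.348), Fosl1 (0.630), Jun (0.636) and Atf3 (0.926) were then not called. With 48.0% of genes called at LPS 3 h, that width may include responses to the knockdown. The empirical null therefore cannot decide which of these calls are real.

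In unstimulated macrophages Fosl2 and Jun fell and 0 members rose. These are 2 falls among 10, against 17.8% of all genes called lower, and 0 rises, against 21.3% called higher. Of 10809 genes with a mean of at least 50, with p adjusted anew over these genes alone, 50.1% were called in either direction. At an unadjusted p below 0.05 in the authors' DESeq2 table there is 1 member above 0, Junb. The members' median was -0.04, against 0.03 over all genes tested. Fosl2 stood at 82.1% of control (74.0 to 91.2%), or -0.28 ± 0.08 log2 by the authors' deposited table (adjusted p = 9.44e-04). Jun stood at 86.8% (77.2 to 97.7%), or -0.20 ± 0.09 log2 by the authors' deposited table (adjusted p = 0.0489). Both calls were lost under the empirical null (adjusted p = 0.593 for Fosl2 and 0.882 for Jun), and that of Jun also at a threshold of 0.01.

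The remaining 8 members were not called without LPS, and the precision of their values differed. By the authors' deposited table Fos stood at -0.03 ± 0.08 and Atf3 at -0.08 ± 0.07 log2, with intervals of 88.3 to 108% and 86.5 to 104% of control. Junb at 0.12 ± 0.06 (adjusted p = 0.0829) and Jund at 0.12 ± 0.06 (adjusted p = 0.147) lay above 0 by the authors' deposited table. The errors were wider for Fosb at -0.22 ± 0.21, Maff at -0.04 ± 0.16, Fosl1 at 0.13 ± 0.25 and Batf3 at 0.23 ± 0.28 by the authors' deposited table. For Fosl1 the interval ran from 77.3 to 155% of control, and for Batf3 from 80.5 to 172%, so neither direction is settled for these members.

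The difference between the states was tested directly, as the log2 fold change at LPS 3 h minus that in unstimulated cells, with the SE combined and errors taken as uncorrelated. The 2 comparisons share no library. The knockdown effect was more positive at LPS 3 h for Fosb, Maff, Jund, Junb, Fosl2 and Atf3 and more negative for Fos. These are 6 of 10 members higher, against 18.2% of the 12994 genes tested, and 1 lower, against 12.4%. Of 10809 genes with a mean of at least 50, with p adjusted anew over these genes alone, 36.4% were called. Of these calls 2345 were higher and 1590 lower. The members' median difference was 0.28, against 0.01 over all genes tested. Markers moved in the same difference: 7 of 8 dividing cell markers were higher (median 0.77) and 6 of 8 macrophage markers lower (median -0.29), and their part in the AP-1 differences was not tested.

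**Figure D2:**
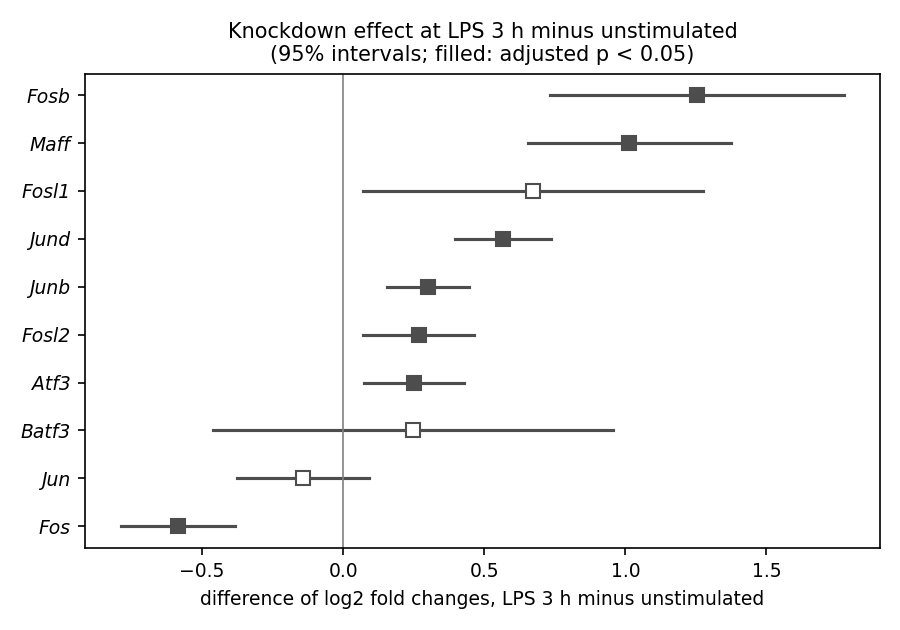
Difference of the log2 fold changes (shMOF over shCTRL), LPS 3 h minus unstimulated, for each AP-1 gene. Lines are 95% intervals and filled points passed an adjusted p of 0.05; Fosb is at 1.25 and Fos, the one filled point below 0, at -0.59.

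Fosb had the widest difference, 1.25 ± 0.27 (adjusted p = 2.51e-05), which 174 of the 12994 genes exceeded. Maff followed with 1.01 ± 0.18 (adjusted p = 5.48e-07), so that its ratio of shMOF to shCTRL was 2.02-fold higher at LPS 3 h than without LPS. Jund differed by 0.57 ± 0.09 (adjusted p = 2.07e-09) and Junb by 0.30 ± 0.07 (adjusted p = 3.63e-04). Fos differed by -0.59 ± 0.10 (adjusted p = 2.34e-07), so its fold change at LPS 3 h was 0.667 of that in unstimulated cells. For Fosl2 the difference of 0.27 ± 0.10 (adjusted p = 0.0308) joins a value near 0 at LPS 3 h to a fall in unstimulated cells. Atf3 differed by 0.25 ± 0.09 (adjusted p = 0.0225).

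For 3 members no difference between states was called. Jun had -0.14 ± 0.12 (adjusted p = 0.395, 95% interval -0.38 to 0.09), and it fell in both states. Fosl1 had 0.67 ± 0.31 (adjusted p = 0.0827), although it was called at LPS 3 h and not without LPS. Batf3 had 0.25 ± 0.36 (adjusted p = 0.657), with an interval from -0.46 to 0.95. Under the empirical null no member's difference was called, the lowest adjusted p being 0.112 for Jund, 0.202 for Fos and 0.241 for Maff. Under an assumed error correlation of -0.3 the calls of Fosl2 (adjusted p = 0.0755) and Atf3 (0.0601) were lost, and at 0.3 Fosl1 was called (0.0285).

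**Figure D3:**
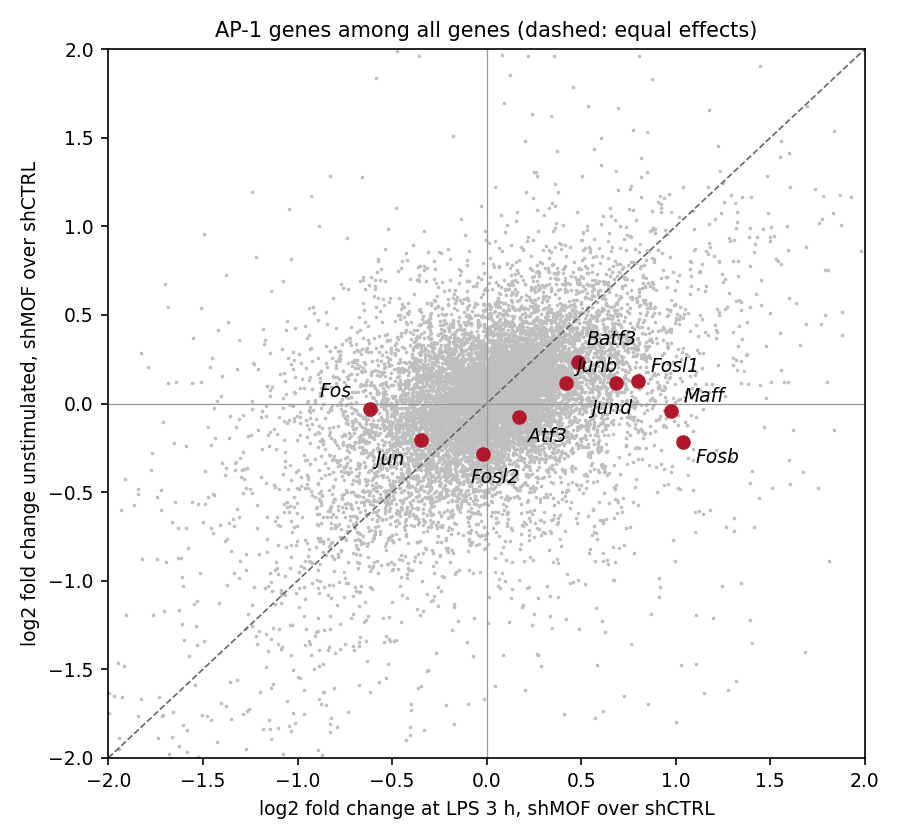
Log2 fold change (shMOF over shCTRL) at LPS 3 h on the horizontal axis and unstimulated on the vertical axis, for the AP-1 genes (named) among 12870 genes within 2 of 0 on both axes; 124 genes lie outside. On the horizontal axis the members spread from -0.62 to 1.04, and on the vertical axis from -0.28 to 0.23.

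The members ranged from -0.62 to 1.04 on the log2 scale at LPS 3 h and from -0.28 to 0.23 unstimulated. Among all 12994 genes, Fosb stood at percentile 98.2 of the log2 fold change at LPS 3 h, Maff at 97.8, Fosl1 at 96.0 and Jund at 94.0. Fos stood at percentile 7.96 and Jun at 17.0. Unstimulated, the members lay between percentile 17.3 (Fosl2) and 76.7 (Batf3).

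The members also differ in how much RNA they contribute. The authors' mean normalized count, from their deposited table, was divided by the exon length of GENCODE M21, which gives a level per kilobase (kb); the mean is identical in both tables, so it is a level of neither LPS state, and its libraries are not stated. Junb had the highest level, 8066 per kb, followed by Atf3 with 3502, Jund with 3111 and Fos with 3110 per kb, all at percentile 96.7 or above. Jun had 1310 per kb. Lower levels were those of Maff with 245, Fosl2 with 212, Fosb with 70.6, Fosl1 with 47.7 and Batf3 with 17.0 per kb. The 3 highest log2 fold changes at LPS 3 h, those of Fosb, Maff and Fosl1, belong to members at or below 245 per kb, while Fos, with the lowest, is among the 4 highest in level. Fosl2 and Batf3 are also below 245 per kb and were not called, and Jund, with 3111 per kb, rose by 0.68. These means carry no error, so whether neighbours in this order differ cannot be said.

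The SE of a member was smaller at LPS 3 h than unstimulated in all 10 cases. For Maff the SE at LPS 3 h was 0.509 of that without LPS, a ratio at percentile 1.85 of all genes, for Fosl1 0.677 and for Fosb 0.796. For Jun, at the other end, it was 0.946, at percentile 41.0, so ratios below 1 are common among all genes. Levels in each state are not given in the tables.

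Some member loci overlap other genes on the opposite strand, and use of strand in counting is not given in the sources used here. Ccdc85b overlaps Fosl1 over 2767 bases, from 5453180 to 5455946. The authors' deposited table puts Ccdc85b at 0.34 ± 0.16 (adjusted p = 0.0599) at LPS 3 h and 0.41 ± 0.12 (adjusted p = 0.00204) unstimulated, with a mean normalized count of 222 beside 96.9 for Fosl1. The value of Fosl1 is therefore uncertain. Jund overlaps the antisense gene Gm11175 over 919 bases and Jun overlaps Junos over 689 bases. Mean normalized counts of the authors' deposited table were 46.8 for Gm11175 and 50.7 for Junos, beside 5189 for Jund and 4177 for Jun. Junb overlaps Prdx2 over 351 bases, and by the authors' deposited table Prdx2 stood at -0.09 ± 0.04 (adjusted p = 0.0466) at LPS 3 h, opposite in sign to Junb. Atf3 overlaps the small RNA gene Gm24748 over 108 bases.

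Counts for the pathway lists below are to be set against all genes tested, of which 28.1% were higher and 20.0% lower at LPS 3 h, 21.3% and 17.8% unstimulated, and 18.2% and 12.4% in the difference. Among other bZIP genes, of 37 measured, 17 rose and 6 fell at LPS 3 h, and 14 rose and 2 fell unstimulated, with medians of 0.15 and 0.08. The share called was 62.2% at LPS 3 h and 43.2% unstimulated, against 48.0% and 39.1% of all genes. Of genes with a mean of at least 50, adjusted among themselves, 59.2% and 50.1% were called. For the difference, 9 of 36 bZIP genes were higher and 7 lower. At LPS 3 h, by the authors' deposited table, the C/EBP gene Cebpd rose by 0.82 ± 0.07, the CREB-family genes Creb3l1 by 0.80 ± 0.08 and Creb1 by 0.43 ± 0.05, and Tef, a circadian PAR bZIP gene, fell with -1.06 ± 0.08. Unstimulated, by the authors' deposited table, Nfil3, a repressor of PAR bZIP targets, rose by 0.93 ± 0.11, Cebpd by 0.78 ± 0.08 and the stress sensor gene Atf6 by 0.38 ± 0.05, while Tef fell with -0.56 ± 0.07. Relatives of Maff did not all share its sign. By the authors' deposited table Mafg, another small MAF gene, had -0.25 ± 0.04 at LPS 3 h and 0.12 ± 0.04 unstimulated. Its difference was -0.37 ± 0.06 (adjusted p = 9.51e-10). Mafk, also a small MAF gene and chosen after its values were seen, rose by 0.55 ± 0.09 at LPS 3 h by the authors' deposited table.

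The MAP kinase cascade, which signals to AP-1, held calls in both directions. Of 33 measured genes 16 rose and 9 fell at LPS 3 h, 12 rose and 7 fell unstimulated, and 8 of 31 were higher and 8 lower in the difference. The medians were 0.07, 0.06 and 0.00. Mapkapk2, the kinase gene downstream of p38, rose by 0.74 ± 0.05 at LPS 3 h and by 0.56 ± 0.05 unstimulated per the authors' deposited table. Map2k3, a p38 kinase kinase gene, fell with -0.80 ± 0.05 and -0.54 ± 0.06, and Map2k5, which activates ERK5, with -1.11 ± 0.07 and -0.64 ± 0.06 per the authors' deposited table. Of 4 ribosomal S6 kinase genes of the Rps6ka family in the list, 3 differed by state. The difference was 0.44 ± 0.05 (adjusted p = 3.30e-17) for Rps6ka3 and -0.65 ± 0.08 (adjusted p = 6.03e-16) for Rps6ka1, both of which act downstream of ERK. For Rps6ka5, which encodes the histone H3 kinase MSK1, it was 1.09 ± 0.14 (adjusted p = 1.99e-13). Rps6ka4, its close relative, had a difference of -0.02 ± 0.07 (adjusted p = 0.843).

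Among factors that act on immediate-early promoters, of 10 SRF, TCF and MEF2 genes 6 rose and 1 fell at LPS 3 h (median 0.22). Unstimulated 4 rose and 0 fell (median 0.09), and 2 were higher and 0 lower in the difference. At LPS 3 h Elk3, a partner of SRF, rose by 0.50 ± 0.05, Mef2a by 0.40 ± 0.04 and Elk4 by 0.38 ± 0.07 per the authors' deposited table. Srf itself rose by 0.19 ± 0.05 at LPS 3 h and by 0.27 ± 0.06 unstimulated per the authors' deposited table.

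Immediate-early genes outside the bZIP family rose at LPS 3 h in 12 of 23 cases and fell in 2, with a median of 0.19. Unstimulated, 6 rose and 1 fell (median 0.15), and in the difference 6 were higher and 4 lower. At LPS 3 h, by the authors' deposited table, the small GTPase gene Rhob rose by 0.81 ± 0.05, Gadd45b by 0.63 ± 0.04, Csrnp1 by 0.72 ± 0.06 and the zinc finger factor gene Egr2 by 0.82 ± 0.15. Of these, Rhob at 0.08 ± 0.06, Gadd45b at 0.07 ± 0.06 and Egr2 at 0.15 ± 0.19 were not called unstimulated per the authors' deposited table. Ptgs2, which encodes the prostaglandin synthase COX-2, rose by 0.49 ± 0.09 at LPS 3 h and fell with -1.27 ± 0.30 unstimulated per the authors' deposited table. Nr4a1, an orphan nuclear receptor gene, had -0.15 ± 0.12 at LPS 3 h and rose by 0.76 ± 0.13 unstimulated per the authors' deposited table.

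Feedback genes of MAP kinase signalling include the phosphatases of the DUSP family. Of 15 measured 5 rose and 2 fell at LPS 3 h and 3 rose and 4 fell unstimulated. These are 46.7% in each state, against 48.0% and 39.1% of all genes. Of genes with a mean of at least 50, adjusted among themselves, 59.2% and 50.1% were called. In the difference 7 of 14 feedback genes were higher and 2 lower, with a median of 0.44. Dusp2, a nuclear MAP kinase phosphatase gene, differed by 1.47 ± 0.15 (adjusted p = 1.58e-20) and Dusp14 by 1.67 ± 0.31 (adjusted p = 8.77e-07). Dusp6, which encodes an ERK phosphatase, differed by -1.22 ± 0.19 (adjusted p = 4.59e-09). By the authors' deposited table Dusp6 fell with -0.80 ± 0.17 at LPS 3 h and rose by 0.43 ± 0.08 unstimulated. Dusp1, an LPS-induced MAP kinase phosphatase gene, had 0.03 ± 0.06 at LPS 3 h and fell with -0.45 ± 0.07 unstimulated per the authors' deposited table.

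The next list holds mRNA binding and decay genes, not all of which act through AU-rich elements. Of 12 genes 6 rose and 2 fell at LPS 3 h, and 3 rose and 1 fell unstimulated. In the difference 7 were higher and 3 lower. Zfp36, which encodes tristetraprolin, a decay factor for AU-rich mRNAs, rose by 0.46 ± 0.05 at LPS 3 h and by 0.21 ± 0.06 unstimulated per the authors' deposited table. The RNase genes Zc3h12a and Zc3h12c rose by 0.54 ± 0.04 and 0.59 ± 0.05 at LPS 3 h per the authors' deposited table. Zfp36l2, a relative of Zfp36, fell with -0.91 ± 0.09 at LPS 3 h and had 0.00 ± 0.08 unstimulated per the authors' deposited table.

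Ubiquitin ligase and related genes that act on JUN and FOS proteins rose in 3 of 7 cases and fell in 1 at LPS 3 h. Unstimulated, 0 of 8 rose and 2 fell, and in the difference 4 of 7 were higher and 0 lower. At LPS 3 h, by the authors' deposited table, Rfwd2, which encodes the ligase COP1, rose by 0.24 ± 0.04 and Fbxw7, a substrate receptor for c-Jun, by 0.34 ± 0.07.

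Of 28 AP-1 target genes measured 15 rose and 3 fell at LPS 3 h, with a median of 0.40, and 4 rose and 5 fell unstimulated, with a median of -0.07. In the difference 9 of 27 were higher and 5 lower. The share called was 64.3% at LPS 3 h, against 48.0% of all genes, and 32.1% unstimulated, below the 39.1% of all genes. Of genes with a mean of at least 50, adjusted among themselves, 59.2% and 50.1% were called. At LPS 3 h, by the authors' deposited table, the cytokine gene Tnf rose by 1.10 ± 0.06 and Cd44, a hyaluronan receptor gene, by 0.61 ± 0.04. The cyclin gene Ccnd1 fell with -1.37 ± 0.09 at LPS 3 h and -0.77 ± 0.10 unstimulated per the authors' deposited table. Unstimulated, by the authors' deposited table, the chemokine gene Ccl2 fell with -1.09 ± 0.15, whereas Mmp14, a membrane metalloprotease gene, rose by 0.88 ± 0.14 and Vegfa, a vascular growth factor gene, by 0.50 ± 0.10. Many of these genes also answer to NF-kB and other factors, and whether AP-1 proteins act on them in these cells was not tested.

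**Figure D4:**
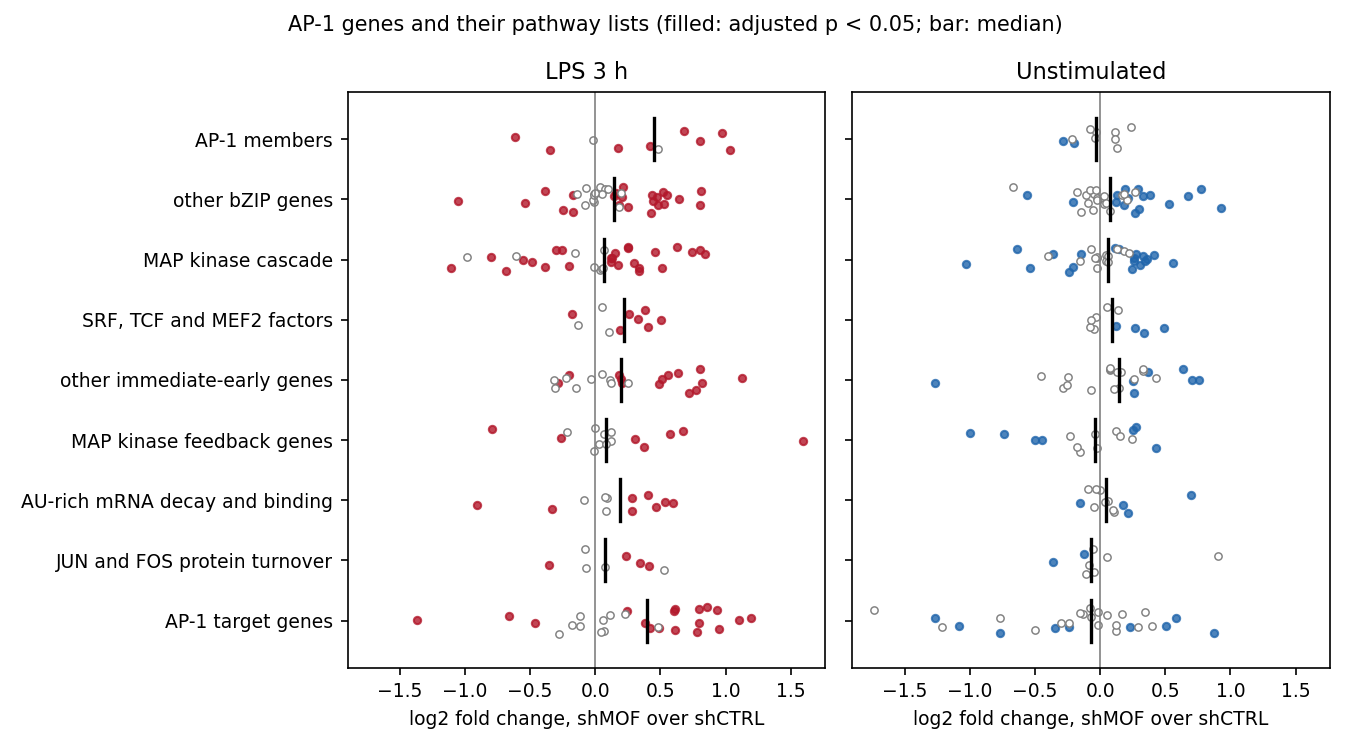
Log2 fold change (shMOF over shCTRL) of each measured gene of the AP-1 group and of 8 pathway lists, at LPS 3 h (left) and unstimulated (right). Filled points passed an adjusted p of 0.05 and bars are medians; the AP-1 median lies at 0.45 at LPS 3 h and at -0.04 unstimulated.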

How the data were processed

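RNA sequencing of 12 mouse macrophage libraries was deposited as 2 tables of 14264 genes, one per LPS state, each comparing shMOF with shCTRL. Per the submitters' processing notes, DESeq2 and mm10 were used, with no version of DESeq2; the aligner, the counter and its use of strand are not given. Per the file headers, each of the authors' tables holds a mean normalized count (a signal, identical in both), a log2 fold change with SE, a Wald statistic (a score), a p-value and an adjusted p-value. The authors left 277 genes of the LPS table without an adjusted p, and these stayed so. A call is an adjusted p below 0.05.

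Intervals and percentages of control were computed from these values. The difference between states was given a normal p, two-sided, adjusted by Benjamini-Hochberg over 12994 genes with a mean of at least 10 (Python 3.11.15, scipy 1.17.1). Its code was run on data simulated with normal, uncorrelated errors, which cannot test whether the real errors are so. Alternatives were stricter thresholds and filters, centring, other nulls and correlated errors. Members and lists were chosen with earlier results of these data known. Of 174 list entries 166 were matched by name, and Ptgs2 stands in 2 lists. Genes that could be named are all members, Kat8, called markers and, per pathway list and comparison, up to 4 genes with the smallest p; some are not reported here, and Mafk and Rps6ka4 were added after their values were seen. Positions are from GENCODE M21 (GRCm38), matched by gene ID without version.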

Additional observations from a re-analysis of the deposited data

Results flagged for a closer look

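The knockdown effect differed between LPS 3 h and unstimulated cells, by the test of the difference itself, in 7 of 10 members. Of the 12994 genes tested, 30.6% were called in the difference. Under the empirical null no member's difference was called. The differences of the log2 fold changes were 1.25 for Fosb, 1.01 for Maff, 0.57 for Jund, 0.30 for Junb, 0.27 for Fosl2, 0.25 for Atf3 and -0.59 for Fos. Fos and Fosb, of the same subfamily, thus differed in opposite directions.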

How the results depend on the processing

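Centring on the median of all genes, another filter on the mean and no filter kept every member's side of the threshold where these were run. No alternative reversed the sign of a called member, but most of them reuse the same log2 change. Only centring and the empirical null shift that change, and by little, so the kept signs are no support. At a threshold of 0.01, 1 member was called lower unstimulated in place of 2, 5 higher in place of 6 at LPS 3 h (Atf3 lost), and 4 higher in place of 6 in the difference (Fosl2 and Atf3 lost). Over all genes tested, 30.5% were then called unstimulated, 39.4% at LPS 3 h and 21.7% in the difference. With a minimum log2 change of 1, 1 member was called higher and 0 lower at LPS 3 h, 0 lower unstimulated, and 2 higher and 0 lower in the difference; calls over all genes were 693, 484 and 391, against 6718, 5575 and 3977. Testing against a change of up to 0.25 left 5 members higher (Atf3 lost) and 1 lower (Jun lost) at LPS 3 h and 0 lower unstimulated, with 2447 and 1492 calls over all genes. Under the empirical null 2 were called higher and 0 lower at LPS 3 h, 0 lower unstimulated, and 0 higher and 0 lower in the difference. That null centres the statistics on their median over genes, 0.20 at LPS 3 h, 0.23 unstimulated and 0.05 for the difference. Its width, a scaled median absolute deviation, was 3.09, 2.53 and 2.25 in the same order. The empirical null left 747, 783 and 335 calls over all genes, of which 68.0%, 28.2% and 80.6% were higher, against 58.4%, 54.5% and 59.4%. No paired analysis was possible because the tables carry no values per library, and leaving out replicates was not run for the same reason.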
